A study of Mus musculus with 6 samples.

Results

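The genes of prostaglandin synthesis and inactivation were examined in mouse 3T3 fibroblasts that carry human PARG (hPARG), the enzyme that degrades poly(ADP-ribose). The set holds 9 genes, matched by gene symbol among the 41819 genes of the count table: Pla2g4a, Ptgs1, Ptgs2, Ptges, Ptges2, Ptges3, Ptgis, Ptgr1 and Hpgd. Of these, 8 passed the filter on low counts and were among the 11509 genes tested, and Hpgd did not pass. All 6 samples came from 1 clone with a lentiviral cassette in which doxycycline (DOX) switches on hPARG together with the fluorescent protein mClover3, and the labels call the cells malignant. The control was this clone grown for 72 h without DOX (3 dishes), and hPARG cells were the same clone with 500 ng/ml DOX for 72 h (3 dishes). There was no sample with DOX but without the cassette, so DOX and hPARG cannot be told apart here. The labels speak of wells of a 6-well plate and the methods of 10 cm dishes, and "dish" is used below.

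Prostaglandins are short-lived lipid signals made from arachidonic acid. Cytosolic phospholipase A2 frees arachidonic acid from membranes, a cyclooxygenase (COX) turns it into the unstable prostaglandin H2, and a terminal synthase then sets which prostaglandin is made, such as prostaglandin E2 or prostacyclin. Dehydrogenases and reductases inactivate the products. In fibroblasts, COX-1 (Ptgs1) is known as the constitutive cyclooxygenase, while COX-2 (Ptgs2) and the membrane synthase encoded by Ptges are induced by inflammatory signals, in part through NF-kB.

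None of the 8 tested genes passed the test between hPARG cells and control. Their log2 fold changes lay between -0.21 (Ptges) and 0.18 (Pla2g4a), and every 95% interval lay between 0.648-fold and 1.36-fold, so that a change of 2-fold lay outside each interval in either direction. In edgeR's quasi-likelihood test 0 of 8 had a false discovery rate (FDR, Benjamini-Hochberg over all tested genes) under 0.05, beside 0.0869% of all tested genes. All 8 had an FDR of 0.999, and 0 of 8 had an unadjusted p under 0.05. DESeq2 and edgeR's likelihood ratio test also called 0 of 8, with 0 at an unadjusted p under 0.05.

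The dishes held between 21619908 and 25263818 counts, and 3 counts, taken as the floor of detection, correspond to between 0.119 and 0.139 CPM (counts scaled to a common library size). Both dishes numbered 2 stood apart from the others: the deviation of a gene from its group mean followed its exon length with Spearman's rho of 0.53 in control dish 2 and 0.521 in hPARG dish 2 across genes, which are not independent replicates, and values without these dishes are given below. Of 10 fibroblast markers, 8 were tested and 0 called. However, 4 of the 8 had groups that did not overlap, beside 9.62% of all tested genes. The collagen genes Col1a1 and Col3a1 and Thy1 were higher in hPARG dishes, and Pdgfra was lower. Col1a1 was called without both dishes numbered 2 (log2 fold change 0.63, FDR = 0.00674), where 40 of 11589 tested genes were called. The part of these marker differences in the results below was not tested. Together the 10 fibroblast markers summed to between 6117 and 7848 CPM in control and between 7084 and 8956 CPM in hPARG dishes. The fibroblast markers Lum and Dcn were near 0, with at most 4 and 15 counts in a dish. The 8 leukocyte and macrophage markers summed to between 14.1 and 18.9 CPM in control and between 11.2 and 18.3 CPM in hPARG dishes. Most of these sums came from Cd14 (5.77 to 9.95 CPM) and Lyz2 (4.20 to 7.65 CPM). Ptprc, Csf1r, Itgam and Tyrobp had at most 8 counts in a dish, and Adgre1 had 0 counts in all dishes. Endothelial and epithelial markers summed to at most 1.56 and 1.08 CPM. These are bulk samples, in which fewer expressing cells and less RNA per cell cannot be told apart.

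Levels were compared between genes by RPKM (reads scaled by gene length and by library size), as the authors' software gave it, over all 6 dishes. Ptges3 had the highest level, 184 to 205 RPKM, above 97.5% of the tested genes. Its product, the Hsp90 co-chaperone p23, is also a cytosolic prostaglandin E synthase. Ptgs1 followed with 50.8 to 63.6 RPKM, above 91.1% of the tested genes. Pla2g4a (21.9 to 26.9 RPKM) came next and did not overlap with Ptgs1 or with Ptgr1 (13.3 to 21.8 RPKM), its neighbours in the order. Below these the ranges ran into each other. Ptgr1 exceeded Ptgs2 in 5 of 6 dishes, and Ptgs2 (10.9 to 16.4 RPKM) exceeded Ptges (9.65 to 13.9 RPKM) in 3 of 6. Ptges2 (6.64 to 11.3 RPKM) was below Ptges and above Ptgis (6.57 to 8.82 RPKM) in 6 of 6 dishes, although the ranges overlapped. Ptgis was still above 46.7% of the tested genes, whereas Hpgd was at or below 0.0481 RPKM in every dish.

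**Figure D1:**
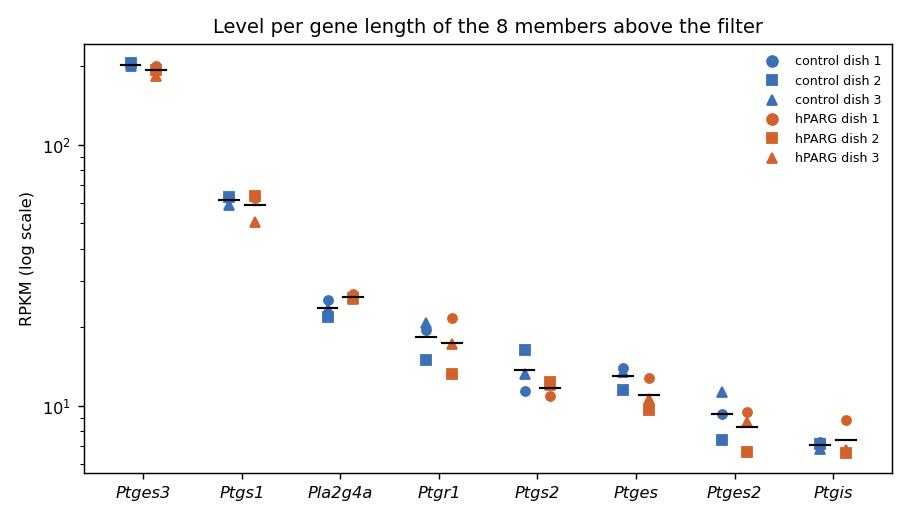
RPKM on a log scale (vertical) of the 8 tested genes (horizontal, ordered by mean level), with 1 point per dish and a line at each group mean; Hpgd, at 0 in 4 of 6 dishes, is not drawn. Ptges3 at 184 to 205 and Ptgs1 at 50.8 to 63.6 RPKM stand clear of the other genes, and within each gene the control and hPARG dishes lie close together.

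Arachidonic acid release was represented by Pla2g4a (ENSMUSG00000056220, GRCm38 chromosome 1, 149829618 to 149961290, minus strand), which encodes the cytosolic phospholipase A2 that prefers arachidonic acid. Its normalized level was 83.3, 69.9 and 80.6 CPM in control dishes 1 to 3 and 90.2, 85.4 and 88.7 CPM in hPARG dishes 1 to 3. All 3 hPARG dishes lay above all 3 control dishes. Pla2g4a was the single tested gene of the set whose groups did not overlap, 1 of 8, beside 9.62% of all tested genes. The control mean of 78.0 ± 7.08 CPM compared with an hPARG mean of 88.1 ± 2.45 CPM (SD, n = 3), and the fitted log2 fold change was 0.18 (standard error 0.103, 95% interval -0.06 to 0.41), which did not pass the test (FDR = 0.999). Without both dishes numbered 2 the log2 fold change was 0.13 (FDR = 0.854), and without control dish 2 alone it was 0.10. After an adjustment of each dish for gene length the log2 fold change was 0.15 (FDR = 0.998), and the groups then overlapped.

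The cyclooxygenases catalyse the same committed step. Ptgs1 (ENSMUSG00000047250, chromosome 2, 36230426 to 36252272, plus strand) had 193, 189 and 189 CPM in the control dishes and 197, 196 and 165 CPM in the hPARG dishes. The control dishes were almost equal, and hPARG dish 3 alone was lower. The log2 fold change was -0.03 (standard error 0.104, 95% interval -0.27 to 0.21, FDR = 0.999) and became 0.05 without hPARG dish 3 and -0.07 without both dishes numbered 2. An antisense transcript shares 3.81% of the exon bases of Ptgs1 and had no counts. Ptgs2 (ENSMUSG00000032487, chromosome 1, 150100031 to 150108227, plus strand) had 55.9, 78.4 and 67.8 CPM in the control dishes and 54.8, 60.6 and 62.1 CPM in the hPARG dishes. The groups overlapped, since control dish 1 fell among the hPARG dishes, and control dish 2 was the highest of all 6. The control mean of 67.4 ± 11.3 CPM compared with an hPARG mean of 59.2 ± 3.84 CPM (SD, n = 3), and the fitted log2 fold change was -0.19 (standard error 0.138, 95% interval -0.51 to 0.13, FDR = 0.999). Without both dishes numbered 2 it was -0.08 (FDR = 0.961), without control dish 2 alone -0.06, and without control dish 1 alone -0.30. After the adjustment for gene length it was -0.19 (FDR = 0.998). All hPARG dishes then lay below all control dishes, and 8.38% of all tested genes had groups that did not overlap.

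Within each dish Ptgs1 exceeded Ptgs2 per length, with RPKM ratios of 5.51, 3.84 and 4.46 for control dishes 1 to 3 and of 5.74, 5.17 and 4.24 for hPARG dishes 1 to 3. The mean ratio was 4.60 ± 0.842 in control and 5.05 ± 0.757 in hPARG cells (SD, n = 3), and the difference was within the spread between dishes (exact permutation test, two-sided, p = 0.6, adjusted p = 0.6 over 4 ratios). These 4 ratios were added after the values of the genes had been seen, and 3 dishes against 3 cannot give a p under 0.1.

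The upstream sequences of this pair are shown because the genes share a reaction but differ in level by the ratio above. The 250 bases before the start site (RefSeq, GRCm38.p6, plus strand for both genes, chr2:36230176-36230425 for Ptgs1 and chr1:150099781-150100030 for Ptgs2) were searched on both strands for the core of the TATA box, written TATAAA, the E-box written CACGTG, the GC box written GGGCGG, the core of the cAMP response element, written TGACG, the palindrome TTGCGCAA that C/EBP factors bind, and the kappaB consensus, and matches are in capitals:
Ptgs1: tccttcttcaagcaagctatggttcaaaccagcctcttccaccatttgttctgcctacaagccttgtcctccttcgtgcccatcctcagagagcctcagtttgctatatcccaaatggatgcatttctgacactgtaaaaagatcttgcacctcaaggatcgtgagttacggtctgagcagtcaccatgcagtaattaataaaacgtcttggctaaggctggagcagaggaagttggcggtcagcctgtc
Ptgs2: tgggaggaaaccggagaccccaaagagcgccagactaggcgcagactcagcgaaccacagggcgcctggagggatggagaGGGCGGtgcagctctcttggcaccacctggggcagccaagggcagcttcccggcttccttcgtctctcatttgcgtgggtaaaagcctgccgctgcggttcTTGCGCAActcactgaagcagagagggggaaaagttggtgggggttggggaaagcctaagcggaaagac
The Ptgs1 window, with 48% G and C, held none of these letters. The Ptgs2 window, with 61.6% G and C, held GGGCGG from position -170 (the base before the start site is -1), which occurs in 32.7% of 32851 promoter windows of this length, and TTGCGCAA from -69, which occurs in 0.164% of them. The other motifs occur in 12.4% (TATA box core), 6.02% (E-box), 17.8% (cAMP response element core) and 7.25% (kappaB consensus) of these windows. Of the terminal synthases, Ptges held the GC box letters at 2 places and Ptges2 the E-box letters. Ptges3 held the GC box letters at 3 places and the kappaB consensus, which overlapped 1 of them. Ptgis had no promoter window and was not searched. A match is a description of the letters and not of a bound factor.

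**Figure D2:**
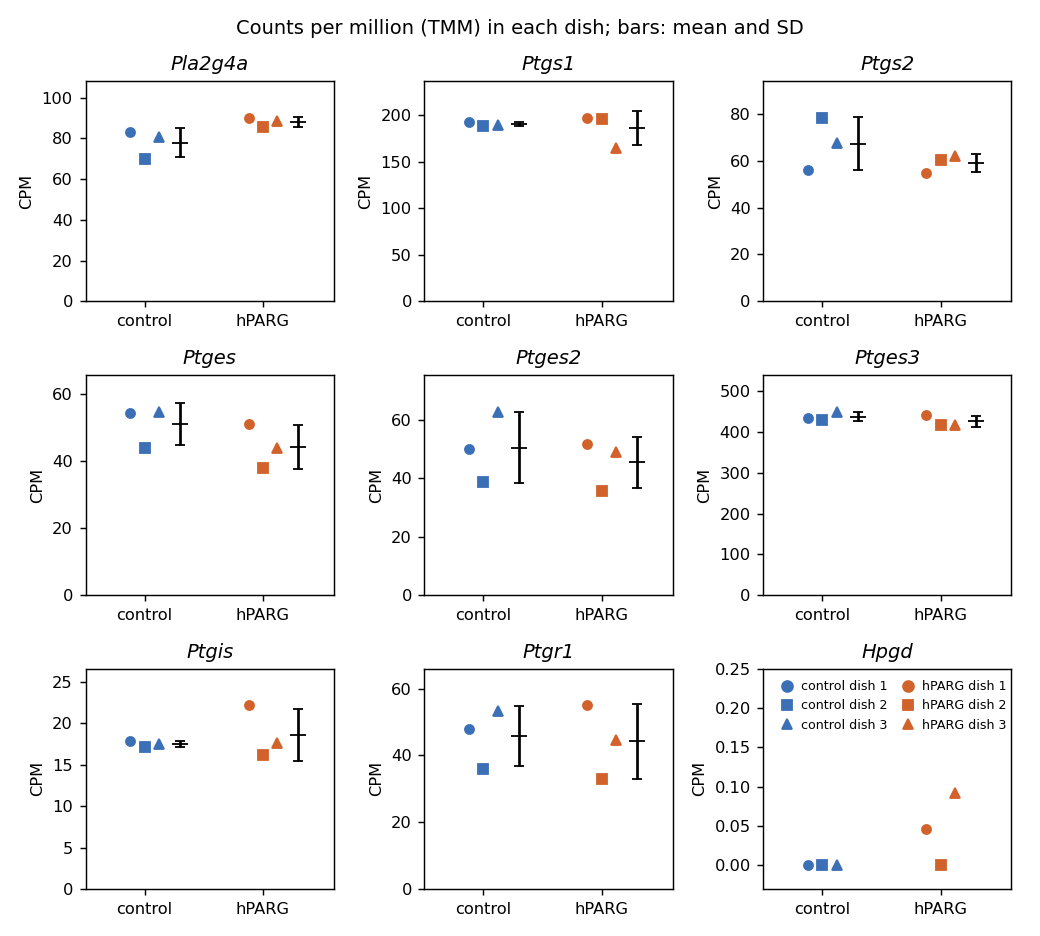
Normalized CPM (vertical, from 0 except for Hpgd) in control and hPARG dishes, with 1 panel per gene, 1 point per dish and bars for the mean and SD over 3 dishes, which are left out for Hpgd. Only in Pla2g4a do the hPARG dishes lie clear of the control dishes. The dishes numbered 2 (squares) are the lowest of each group for Pla2g4a, Ptges, Ptges2, Ptgis and Ptgr1.

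Terminal synthases for prostaglandin E2 are encoded by Ptges, Ptges2 and Ptges3. Ptges (ENSMUSG00000050737, chromosome 2, 30889471 to 30929863, minus strand), the inducible membrane synthase that is coupled to COX-2, had 54.4, 43.8 and 54.8 CPM in the control dishes and 51, 37.8 and 43.9 CPM in the hPARG dishes. The groups overlapped because control dish 2 was low. The control mean of 51 ± 6.25 CPM compared with an hPARG mean of 44.3 ± 6.6 CPM (SD, n = 3), and the log2 fold change of -0.21 (standard error 0.145, 95% interval -0.54 to 0.13) did not pass the test (FDR = 0.999). It was -0.10 without hPARG dish 2, -0.30 without control dish 2 and -0.32 without hPARG dish 1. Without both dishes numbered 2 it was -0.20 (FDR = 0.774), and the groups then did not overlap, as was so for 35.4% of all genes tested in that setting. Ptges2 (ENSMUSG00000026820, chromosome 2, 32395896 to 32405772, plus strand), a membrane-associated synthase, had 49.9, 38.6 and 62.9 CPM in the control and 51.8, 35.6 and 49.0 CPM in the hPARG dishes. Both groups were spread widely, and the log2 fold change of -0.15 (standard error 0.206, 95% interval -0.63 to 0.33, FDR = 0.999) became 0.04 without control dish 3, -0.31 without control dish 2 and -0.15 without both dishes numbered 2. Ptges3 (ENSMUSG00000071072, chromosome 10, 128058954 to 128077272, plus strand) had 435, 429 and 450 CPM in the control and 442, 418 and 417 CPM in the hPARG dishes. With the narrowest interval of the set, its log2 fold change was -0.04 (standard error 0.092, 95% interval -0.25 to 0.17, FDR = 0.999), and without both dishes numbered 2 it was also -0.04. Its transcripts share 480 aligned bases at 100% identity with the pseudogene Ptges3-ps, which was not analysed here, so reads of the 2 loci may not be separated.

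Prostacyclin synthase is encoded by Ptgis (ENSMUSG00000017969, chromosome 2, 167191805 to 167240604, minus strand). It had 17.9, 17.1 and 17.5 CPM in the control and 22.2, 16.2 and 17.6 CPM in the hPARG dishes. The control dishes were tightly grouped and hPARG dish 1 alone was higher. The log2 fold change of 0.09 (standard error 0.136, 95% interval -0.23 to 0.41, FDR = 0.999) became -0.05 without hPARG dish 1 and 0.17 without both dishes numbered 2. An antisense transcript shares 6.08% of the exon bases of Ptgis and had 0 counts in every dish.

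The balance between the branches was read from RPKM ratios within a dish. The ratio of Ptges to Ptgis was 1.91, 1.6 and 1.96 for control dishes 1 to 3, against 1.44, 1.47 and 1.56 for hPARG dishes 1 to 3, so that every hPARG dish was below every control dish. The means were 1.83 ± 0.192 and 1.49 ± 0.0635 (SD, n = 3). The exact permutation test gave p = 0.1 (two-sided), the smallest possible with 3 dishes against 3, and an adjusted p of 0.4 over the 4 ratios, so the difference did not pass. The ratios of Ptges to Ptges2 (1.41 ± 0.193 in control and 1.34 ± 0.114 in hPARG cells, exact p = 0.6) and of Ptges3 to Ptges (15.8 ± 1.79 and 17.8 ± 2.20, exact p = 0.3) overlapped between the groups, with an adjusted p of 0.6 for each.

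**Figure D3:**
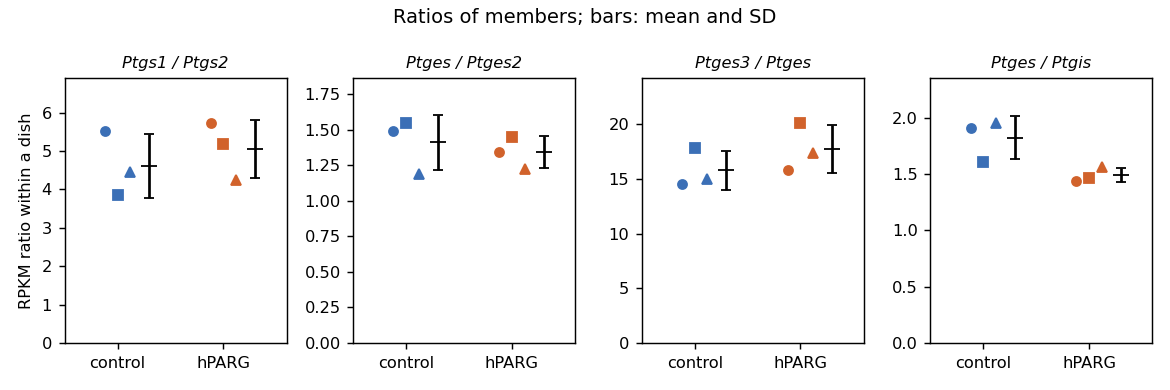
Ratios of RPKM between members within a dish (vertical, from 0) in control and hPARG cells, with 1 point per dish (blue control, orange hPARG; circle, square and triangle for dishes 1, 2 and 3) and bars for the mean and SD over 3 dishes. The groups are apart for Ptges over Ptgis (1.6 to 1.96 against 1.44 to 1.56) and overlap for the other ratios.

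Inactivation was represented by Hpgd and Ptgr1. Hpgd (ENSMUSG00000031613, chromosome 8, 56294585 to 56321043, plus strand), the dehydrogenase that takes the first step of prostaglandin breakdown, had 0 counts in each control dish, against 1, 0 and 2 counts for hPARG dishes 1 to 3. All 6 dishes were at or under the floor of 3 counts, so no fold change is given, and a difference was not detectable at this depth. Ptgr1 (ENSMUSG00000028378, chromosome 4, 58965439 to 58987119, minus strand), a reductase that acts after this step and also inactivates leukotriene B4, had 48.0, 35.9 and 53.4 CPM in the control and 55.0, 32.8 and 44.7 CPM in the hPARG dishes. The spread within each group exceeded the difference between the groups. Its log2 fold change was -0.05 (standard error 0.214, 95% interval -0.55 to 0.44, FDR = 0.999), the least precise of the set. It became 0.07 without control dish 3, 0.12 without hPARG dish 2 and -0.02 without both dishes numbered 2.

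Dish 2 shaped several of these spreads. On the log2 scale, control dish 2 and hPARG dish 2 lay below their group means by similar amounts for Ptges2 (-0.36 and -0.33), Ptgr1 (-0.33 and -0.40) and Ptges (-0.21 in both). For Ptgs2 the deviations were 0.23 and 0.04, and for Ptges3 they were -0.03 in both.

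As a group, 6 of the 8 tested genes had a negative and 2 a positive log2 fold change, with a median of -0.05. Over all 11509 tested genes the median was 0.00, with 5863 positive and 5646 negative. The median size of the difference, regardless of direction, was 0.12 in the set and 0.09 over all tested genes.

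The other genes of the pathway were described from a list of 51 genes, of which 19 passed the filter on low counts, and 0 of these were called. None of the 19 had an unadjusted p under 0.05 or groups that did not overlap. Their median log2 fold change was -0.03. The remaining 32 had too few counts to be tested, with 7 of them at 0 in all dishes. Among those with at most 9 counts in every dish were Ptgds, Hpgds and Tbxas1, the synthases of prostaglandin D2 and thromboxane, and Alox5, the first enzyme of the leukotriene branch, was at 0 in all dishes.

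Of 20 genes listed for arachidonate release, which are phospholipases and the lipid hydrolases Mgll and Faah, 6 phospholipases were tested, and Pla2g12a (control 47.2 ± 1.2 CPM, hPARG 47.8 ± 4.01 CPM) and the lysosomal Pla2g15 (control 39.1 ± 2.25 CPM, hPARG 35.0 ± 2.56 CPM, SD, n = 3) had the highest RPKM. Their log2 fold changes were 0.02 and -0.16. Of 7 other synthases 2 were tested. Akr1b3, an aldose reductase with prostaglandin F synthase activity, measured 137 ± 25.8 CPM without and 129 ± 16.6 CPM with hPARG (SD, n = 3), and Cbr1, a carbonyl reductase that converts prostaglandin E2, had 12.8 ± 3.30 and 13.6 ± 4.0 CPM (SD, n = 3). All 4 other genes of inactivation and transport were tested, and of these Zadh2 (also called Ptgr3) had 124 ± 10.9 and 127 ± 6.93 CPM, and Ptgr2 had 39.1 ± 4.16 and 39.0 ± 3.91 CPM (SD, n = 3). In each of these genes the groups overlapped and the difference did not pass the test (FDR = 0.999).

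Of 10 genes of receptors and their regulators 5 were tested, and Ptgfrn, an inhibitor of the prostaglandin F receptor, was the highest with 22.6 ± 5.74 CPM without and 25.2 ± 5.77 CPM with hPARG (SD, n = 3). Ptger4, the EP4 receptor for prostaglandin E2, had 4.43 ± 0.418 and 5.50 ± 1.04 CPM (SD, n = 3), and its fitted log2 difference of 0.31 did not pass (standard error 0.183, FDR = 0.999). The EP2 and EP3 receptor genes Ptger2 and Ptger3 had at most 1 count in any dish. In the leukotriene branch, Lta4h, the leukotriene A4 hydrolase, had 54.5 ± 3.44 and 53.7 ± 4.79 CPM, while Alox5ap, the partner protein of the Alox5 product, had 0.793 ± 0.187 and 1.29 ± 0.548 CPM (SD, n = 3), and the log2 difference of 0.68 did not pass either (standard error 0.409, FDR = 0.999).

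**Figure D4:**
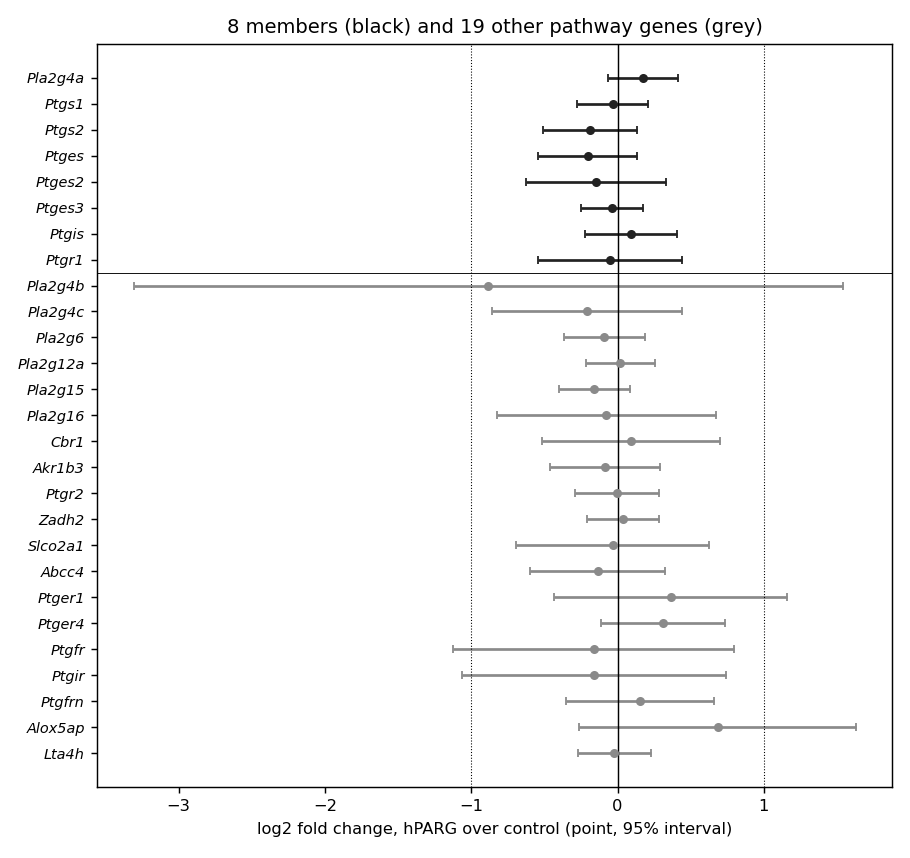
Log2 fold change of hPARG cells over control with its 95% interval (horizontal) for the 8 tested genes of the set (black) and the 19 other tested pathway genes (grey); the dotted lines mark 2-fold differences. All black intervals cross 0 and stay between -0.63 and 0.44, and the wide grey intervals belong to genes of low count such as Pla2g4b.

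The genes with the profile most like that of Ptgs2 were sought among 10816 genes outside the pathway with a mean of at least 1 CPM, by the root mean square difference of log2 CPM, each gene centred on its own mean over the 6 dishes. Acot2 was the nearest (0.0201), followed by Cpox (0.0537), Rnd1 (0.0540), Ccdc174 (0.0560) and Cited2 (0.0568). A flat profile would have differed from Ptgs2 by 0.175. Each of the 5 was highest in control dish 2, as Ptgs2 was, and none was called (FDR = 0.999 for each).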

How the data were processed

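RNA was sequenced from 3 control and 3 hPARG dishes. As deposited, the authors' counts are unnormalized read counts per gene, and their RPKM values scale these by gene length and library size. Per the methods, reads were mapped to GRCm38 with Ensembl annotation in CLC Genomics Workbench, and whether counting used strand is not given in the sources used here. The 6 columns of the authors' own comparison (fold changes and p-values) and 12 TPM and CPM columns were not used.

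The genes and lists were chosen with earlier results of these data known. Counts were filtered with edgeR's filterByExpr (minimum count 10) and scaled by TMM (a normalization for library composition). They were tested with the quasi-likelihood test (edgeR 4.0.16, limma 3.58.1, R 4.3.3), with no replicate block. The design left 4 residual degrees of freedom, to which the test and its intervals add prior degrees of freedom estimated across the tested genes. P-values measure the spread between dishes of 1 clone, which may be technical, and the floor of 3 counts covers counting error only. The text names all 9 genes, the 2 pathway genes of highest RPKM in each role, any called or not overlapping, and the 5 genes most like Ptgs2; other listed genes are given by counts. Ratios were compared by an exact permutation test. Alternatives were other scalings and filters, DESeq2 1.42.0, the likelihood ratio test, a gene length adjustment, a replicate block and leaving out dishes. Scripts were tested on simulated data.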

Additional observations from a re-analysis of the deposited data

How the results depend on the processing

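None of the 8 genes, and none of the 19 other pathway genes, was called under any of the 16 alternatives. Of 128 values of the log2 fold changes under these alternatives 5 reversed, all 5 on leaving out 1 dish: Ptgs1 ranged from -0.0761 to 0.0475 (positive without hPARG dish 3), Ptges2 from -0.309 to 0.0392 (positive without control dish 3), Ptgis from -0.0531 to 0.184 (negative without hPARG dish 1) and Ptgr1 from -0.24 to 0.12 (positive without control dish 3 or hPARG dish 2). The number of genes of the set whose groups did not overlap was 2 with library size scaling (Ptges3 lower, Pla2g4a higher). In that setting 10.2% of all tested genes did not overlap. The number was also 2 without both dishes numbered 2, where 35.4% did not. On leaving out 1 dish it ranged from 1 to 2, with 14.7% to 23.7% of all tested genes. It was 2 without control dish 1 or 2 or hPARG dish 1 or 3. With the gene length adjustment it was 1, with 8.38% of all tested genes, but the gene was Ptgs2 (lower) in place of Pla2g4a. Over all tested genes, 16 were called with no filter on low counts, 52 with DESeq2, 65 with the likelihood ratio test, 40 without both dishes numbered 2, 25 with the gene length adjustment and 3 to 13 on leaving out 1 dish (3 without hPARG dish 1, 5 without hPARG dish 3). The cause was not tested. Dishes of the same number deviated from their group means with r = 0.0963, 0.61 and 0.168 across genes for numbers 1 to 3. The dishes numbered 2 were closest to each other, but control dish 3 was closer to hPARG dish 1 (r = 0.335) than to hPARG dish 3. The labels give only a number, and what the dishes numbered 2 share was not tested. With a replicate block 330 genes were called, and 276 with the block and the gene length adjustment. In the block fit 0 of the 8 genes were called, and the lowest FDR was 0.136. Of the 8, 3 had an unadjusted p under 0.05 (Ptgs2, Ptges and Pla2g4a), beside 2060 of all 11509 tested genes. In the same fit 5 of the 8 tested fibroblast markers were called (Col1a1, Col3a1, Thy1 and Fn1 higher, Pdgfra lower), beside 330 of all 11509 tested genes. Differences in Hpgd and in the 32 untested pathway genes were not detectable at this depth.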

Other observations

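The tested genes nearest to the genes of the set were examined after their values had been seen. Lcn2, which encodes the iron-siderophore carrier lipocalin 2, lies 7.64 kb before Ptges2 on chromosome 2 by coordinate, regardless of strand. It had 114, 129 and 118 counts in control dishes 1 to 3, against 5, 1 and 4 for hPARG dishes 1 to 3. Its log2 fold change was -5.08 (standard error 0.377, FDR = 0.00432 in edgeR's quasi-likelihood test), lower in 3 of 3 hPARG dishes. Ptges2 itself had a log2 fold change of -0.15 and Slc25a25, 8.71 kb on its other side, of -0.26 (FDR = 0.999 for both). Lcn2 was the single called gene among the nearest tested neighbours of the 8 genes. Ptgs2 and Pla2g4a are each other's nearest tested neighbour, 138.74 kb apart on chromosome 1, with log2 fold changes of -0.19 and 0.18, neither of which was called.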
